A study of Rattus norvegicus with 10 samples.

Results

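SNARE genes, which encode the proteins that fuse membranes inside cells and at the cell surface, were followed in RNA of plasma exosomes from rats with and without remote ischemic conditioning (RIC). Members were all transcript clusters of the array whose only symbol in the platform annotation began with Vamp, Stx or Snap and a digit, or was one of a fixed set of Golgi and endoplasmic reticulum SNARE symbols. A transcript cluster is a set of probes read as 1 transcript unit. The rule found 39 genes among 68842 clusters, of which 23456 carried a single symbol, and each gene had 1 cluster. Of the 39, 36 were genes of the SNARE families. The others were Snap91, which encodes the clathrin assembly protein AP180 and is no SNARE despite its symbol, and the pseudogenes Snap23-ps1 and Stx8-ps1. The rule chose among several clusters of a gene by the highest mean over all arrays, which was never needed, and used no difference between the groups.

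The arrays came from 10 male Wistar rats, 5 labelled as healthy controls and 5 as RIC, with 1 array for each animal. In RIC the blood flow of a distant body part is stopped and restored, here in 4 cycles with 5 min of each phase. The text on these cycles stands on all 10 samples, and the groups were taken from the condition each sample is labelled with. Exosomes, membrane vesicles shed by cells, were separated by differential centrifugation from the plasma of 10 mL of EDTA-treated venous blood. The labels state no age, no body part and no time of blood sampling, and describe neither group as sham-treated. All values below are log2 signals as deposited.

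SNARE proteins sit on vesicles and on their target membranes, and assemble into a tight bundle of helices that pulls both membranes together. Vesicle SNAREs such as the VAMPs pair with syntaxins and SNAP proteins of the target membrane, and each transport step inside the cell uses its own combination. Platelets use them to empty their granules, with VAMP8, SNAP-23 and syntaxin-11 as the best known set, and SNAREs also take part in fusing multivesicular bodies with the plasma membrane, the step that sets exosomes free.

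The vesicle preparation carried abundant platelet RNA. All 13 platelet marker genes measured lay above 4.38, the 95th percentile of 1446 olfactory and vomeronasal receptor clusters, which served as the measure of background (median 4.01). Their mean level ranged from 15.53 to 16.18 in control and from 15.03 to 16.01 in RIC over the 9 markers that varied, and 8 of these 9 were lower in RIC (median log2 difference -0.13). Endothelial markers lay above background for 8 of 9 genes, and 8 of 9 were lower in RIC (median -0.57), with a mean level of 6.77 to 7.92 in control and 6.53 to 7.07 in RIC. All 8 erythroid markers measured also exceeded background, and of the 6 that varied 0 were lower, while 8 of 9 neuronal and neuroendocrine markers did not, among them Syp, Syn1 and Syt1. Also above background were 7 of 8 monocyte, 8 of 9 lymphocyte, 5 of 10 neutrophil, 6 of 8 muscle and 2 of 7 liver markers. All 6 genes of vesicle proteins examined, Cd9, Cd63, Cd81, Sdcbp, Tsg101 and Pdcd6ip, lay above background, with Cd9 and Sdcbp at the 19.93 ceiling of the table on every array, although RNA levels do not by themselves identify exosomes. The part that RNA of any of these cell types has in the results below was not tested, and less RNA per vesicle cannot be told apart from fewer vesicles of a cell type.

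Of the 39 members, 28 had a mean above background and 11 did not. The 11 were Snap25, Stx1a and Vamp1 of the neuronal set, Stx3, Stx19, Snap47, Stx16, Stx17 and Sec22c, together with Snap91 and Snap23-ps1. None of the 39 was at the ceiling of the table, 19.93, on any array. Signals of different probes bind with different strength, and levels of different genes are therefore not ranked here.

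The promoters below are shown because Snap23, Stx11 and Use1 had the largest negative differences among members with an unadjusted p under 0.05 and an entry in the RefSeq table. The 250 bases before the transcript start were read from that table (build GRCr8) for Snap23 (chr3:127967636-127967885, plus strand), Stx11 (chr1:9140220-9140469, minus strand) and Use1 (chr16:18072914-18073163, plus strand), 5′ to 3′ with the start site following the last base. Capitals mark any match, on either strand, to CCAAT (the CCAAT box), to GGGCGG (the GC box), to CGGAAG (a core of ETS factor sites), to GATAAG (a core of GATA factor sites) or to TGACGTCA (the cAMP response element), and overlapping matches run together, as at the end of Use1.
Snap23: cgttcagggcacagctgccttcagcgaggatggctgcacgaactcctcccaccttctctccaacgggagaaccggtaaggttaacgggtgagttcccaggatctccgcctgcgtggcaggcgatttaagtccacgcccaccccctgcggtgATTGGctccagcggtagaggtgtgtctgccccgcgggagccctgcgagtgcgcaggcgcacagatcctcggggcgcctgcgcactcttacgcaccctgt
Stx11: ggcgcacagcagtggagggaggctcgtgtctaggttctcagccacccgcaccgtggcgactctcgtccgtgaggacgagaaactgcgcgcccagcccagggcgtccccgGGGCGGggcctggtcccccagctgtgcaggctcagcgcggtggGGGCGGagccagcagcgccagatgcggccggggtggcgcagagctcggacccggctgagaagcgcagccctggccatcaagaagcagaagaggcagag
Use1: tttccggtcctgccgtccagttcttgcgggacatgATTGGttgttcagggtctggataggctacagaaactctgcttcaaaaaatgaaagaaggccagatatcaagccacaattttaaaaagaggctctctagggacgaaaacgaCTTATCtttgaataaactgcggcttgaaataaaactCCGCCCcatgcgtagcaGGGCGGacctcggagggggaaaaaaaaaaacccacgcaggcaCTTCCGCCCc

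The Snap23 sequence held 1 CCAAT box on the reverse strand, Stx11 held 2 GC boxes, and Use1 held 3 GC boxes with 1 match each to the CCAAT, ETS and GATA cores. Over the 33 members with an entry, 22 (66.7%) held a GC box against 32.4% of 27457 promoters in the table, and 12 (36.4%) held the ETS core against 14.7%. The CCAAT box was found in 36.4% of the members and 34.3% of all promoters, the GATA core in 1 member (3.03%) and 6.07% of all, and the cAMP response element in 1 member, Vamp1, and 1.70% of all. Median GC content was 60.4% in the members and 52.0% in the table, with a median of 17 and 6 CpG dinucleotides. The promoters of the table were not matched to the members by gene type or GC content. These matches describe the letters only.

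The comparison asked which SNARE transcripts differed between plasma exosomes of RIC and control rats. With limma over all 68842 clusters, 0 of the 39 members had a Benjamini-Hochberg adjusted p under 0.05, against 0% of all clusters (0 of 68842, with 7665 at an unadjusted p under 0.05), and the lowest adjusted p among members was 0.383. At an unadjusted p under 0.05, 7 members were lower in RIC (Snap23, Vamp3, Stx11, Stx19, Stx5, Stx6 and Use1) and 1, Snap25, was higher. Over all clusters the shares were 3.17% lower and 7.97% higher. Over the 22548 clusters above background they were 7.33% lower and 3.95% higher, beside 6 lower and 0 higher of the 28 members above background. Those clusters include some that were constant on all arrays. Of the 9491 single-symbol genes above background, 1 cluster each, 812 were lower and 261 higher at that threshold. The count of 8 fell to 4 without RIC sample 1, to 4 without RIC sample 5 and to 5 without RIC sample 4. It fell to 5 without control sample 2, and to 1 (Use1) without control samples 1 and 2 together. Over all clusters 2.60%, 2.72%, 3.05%, 2.80% and 2.52% were lower at that threshold in these fits, in that order. Above background the lower shares were 5.81%, 5.78%, 7.03%, 5.16% and 4.62%, beside 7.33% with all samples. In no member were the groups fully apart, which held for 0.471% of all clusters with RIC lower and 1.27% with RIC higher.

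By direction alone, 28 of 39 members were lower in RIC and 11 higher, with a median log2 difference of -0.10, against 0.03 over all clusters. Of the 28 members above background 24 were lower, with a median of -0.15. Over all clusters above background 56.9% were lower with a median of -0.03, and over single-symbol genes above background, 1 cluster each, 67.1% were lower with a median of -0.06.

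**Figure D1:**
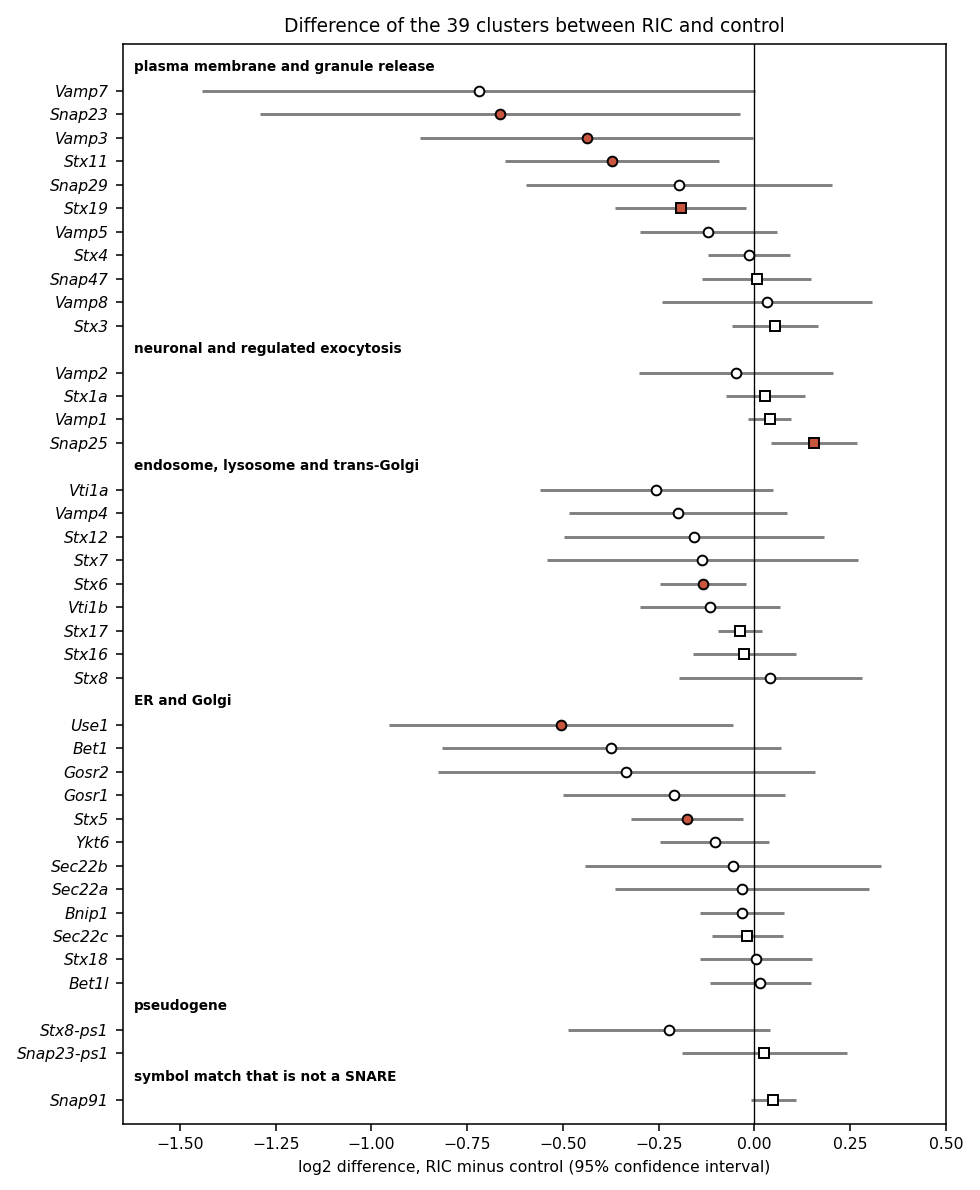
Log2 difference between RIC and control for all 39 clusters, grouped by the transport step of the protein, with 95% confidence intervals from limma. Filled symbols have an unadjusted p under 0.05, and squares mark clusters at or below background. The intervals of Vamp7, Snap23 and Use1 are wide and lie mostly or wholly below 0, and Snap25 is the filled symbol above 0.

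The largest differences were those of Vamp7 and Snap23, of the granule release and plasma membrane class, followed by Use1 of the endoplasmic reticulum. Snap23 encodes the SNAP-25 relative that platelets and most other cells use at the plasma membrane. It measured 10.57, 11.43, 10.59, 10.30 and 11.02 in control samples 1 to 5, and 9.72, 9.90, 10.39, 10.85 and 9.73 in RIC samples 1 to 5. RIC samples 1, 2 and 5 lay below all controls, while RIC sample 4 lay above 3 of them, so the groups overlapped. On the log2 scale the difference was -0.66 (SE 0.28, 95% interval -1.29 to -0.04), a ratio of 0.631 of RIC to control, with an unadjusted p of 0.0402 and a limma adjusted p of 0.435. Without control sample 2 the difference was smaller and its unadjusted p was above 0.05, as it was without RIC sample 1, 2 or 5 or without control sample 5, with unadjusted p-values of up to 0.0910. The cluster of the pseudogene Snap23-ps1 stayed between 3.76 and 4.25 on all 10 arrays, within background.

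Vamp7, a vesicle SNARE of lysosomes and late endosomes, had the largest difference of all members. Its control values were 7.53, 8.77, 7.86, 7.25 and 7.99, and its RIC values 6.60, 7.53, 7.50, 7.55 and 6.62. RIC samples 1 and 5 lay below every control, and the remaining 3 lay close together inside the control range. The log2 difference was -0.72 (SE 0.32, 95% interval -1.44 to 0.002) with an unadjusted p of 0.0506 and an adjusted p of 0.450. That unadjusted p was under 0.05 in 5 of the 10 fits that left out 1 sample, and at most 0.115 (without RIC sample 1). Without control sample 2 the difference was -0.50 (unadjusted p 0.106).

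Vamp3, or cellubrevin, is a vesicle SNARE of recycling endosomes that platelets also carry. Control samples gave 5.50, 6.20, 5.64, 5.35 and 5.21, and RIC samples 4.93, 5.58, 5.11, 5.07 and 5.02. Apart from RIC sample 2, the RIC values lay below all controls, and control sample 2 stood highest. RIC differed from control by -0.44 (SE 0.19, log2) with an unadjusted p of 0.0489 and an adjusted p of 0.447. That unadjusted p was at or above 0.05 in 7 of the 10 fits that left out 1 sample, at most 0.103 (without RIC sample 1). Without control sample 2 the difference was -0.28 (unadjusted p 0.0826).

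Stx11, the syntaxin of granule release in platelets and cytotoxic lymphocytes, measured 7.85, 7.79, 7.36, 7.33 and 7.37 in control and 7.05, 7.34, 7.20, 7.25 and 7.0 in RIC. Only RIC sample 2 reached into the control range, just above the lowest control. Controls 1 and 2 stood above the other 3 controls. The log2 difference of -0.37 (SE 0.12, 95% interval -0.65 to -0.09) had an unadjusted p of 0.0147 and an adjusted p of 0.387. It kept an unadjusted p under 0.05 when any single sample was left out, and had a difference of -0.19 with a p of 0.0558 without control samples 1 and 2. With the level-dependent trend of each array removed it was -0.22 (unadjusted p 0.0734), and after repeated quantile normalization -0.11 (unadjusted p 0.348).

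The other SNAREs known from platelet granule release differed less. Vamp8, the main vesicle SNARE of platelet granules, had control values of 4.96, 4.70, 5.17, 4.94 and 4.79 and RIC values of 4.96, 4.73, 5.07, 5.24 and 4.72, and the groups covered almost the same range. Its log2 difference was 0.03 with a 95% interval from -0.24 to 0.31. Stx4, a plasma membrane syntaxin, lay between 4.84 and 5.04 in control and between 4.88 and 5.04 in RIC, with a difference of -0.01 (95% interval -0.12 to 0.09). Vamp2, the synaptobrevin of regulated secretion, measured 5.66, 6.19, 6.25, 5.92 and 5.81 in control and 6.01, 5.96, 5.80, 5.87 and 5.95 in RIC. Its RIC values fell inside the control range, with a difference of -0.05 (95% interval -0.30 to 0.20). The signs of Vamp8, Stx4 and Vamp2 depended on the scaling of the arrays. Their means over all arrays were 4.93, 4.95 and 5.94. The median difference of all genes was -0.01 between the background limit and 5, and -0.10 between 5 and 6. The part of level in these differences was not tested. Stx2, another syntaxin of platelets, was not analysed here.

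Of the 11 measured SNAREs of the plasma membrane and granule release, 8 were lower in RIC and 3 higher, 4 of the lower ones at an unadjusted p under 0.05, with a median difference of -0.19. Above background 7 of 8 were lower, 3 of them at that threshold. Of the 9491 single-symbol genes above background, 67.1% were lower, and 812 were lower at that threshold. Snap29, a SNAP protein of several internal membranes, differed by -0.20 with an unadjusted p of 0.297, and Vamp5, known from muscle, by -0.12. Snap29 rested on single controls, with -0.36 (unadjusted p 0.0071) without control sample 4, -0.09 without control sample 2 and -0.12 without control sample 3, and it was -0.01 after repeated quantile normalization. Vamp5 differed by -0.08 without control sample 3. Stx19, a syntaxin of epithelia, ranged from 3.95 to 4.19 in control and from 3.73 to 4.10 in RIC, with a difference of -0.19 and an unadjusted p of 0.0319. Its values all lay within background, as did those of Snap47 at 3.68 to 3.98. Stx3, a syntaxin of apical membranes, had a mean of 4.34, just under the background limit.

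**Figure D2:**
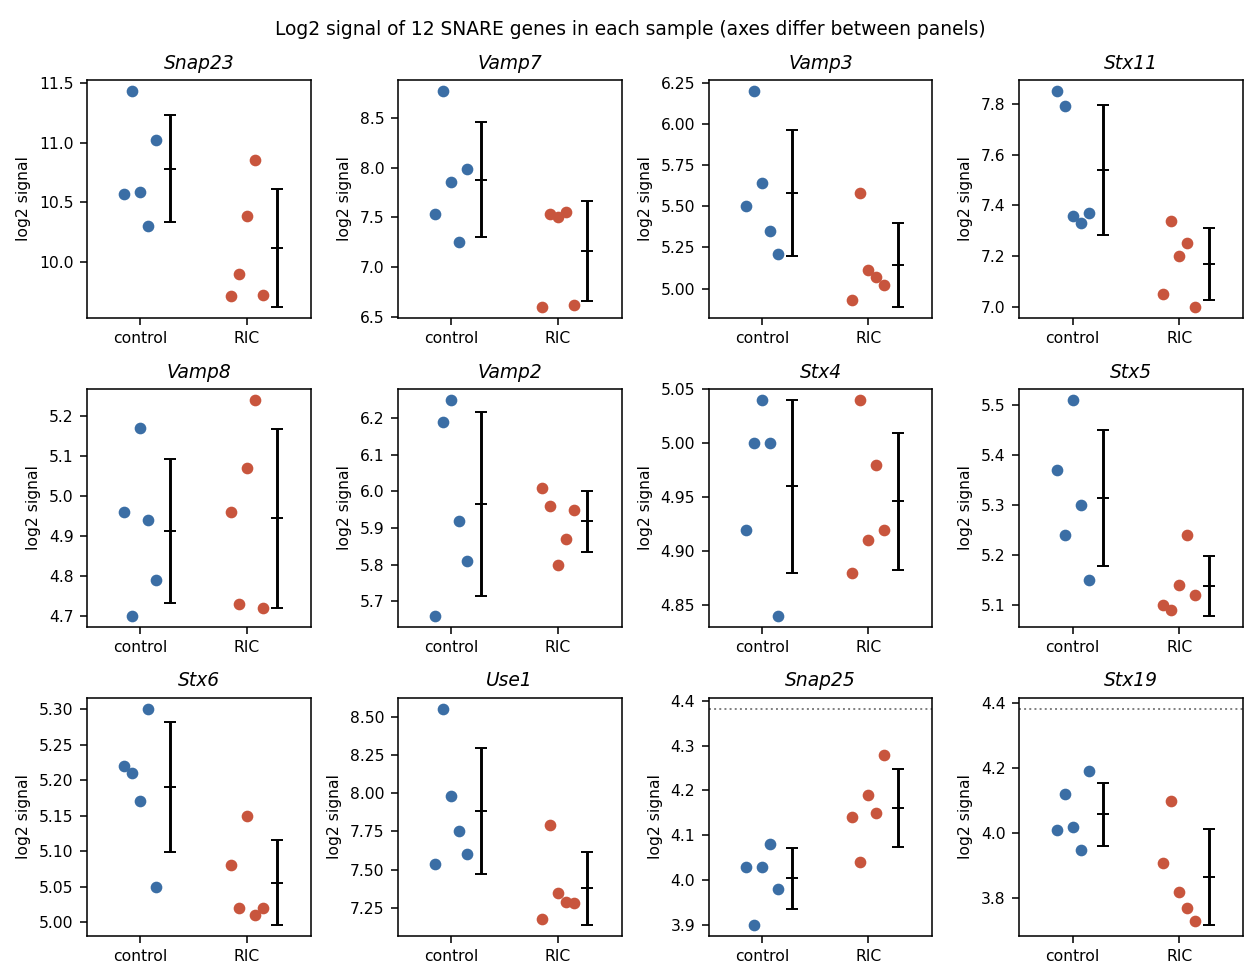
Log2 signal of 12 SNARE genes in each of the 10 samples, with 1 point per animal in order of replicate number, and the group mean with SD as bars beside the points. The vertical axes differ between panels and the dotted line is the background limit of 4.38. RIC values of Snap23, Vamp7 and Vamp3 lie low but reach into the control range, and Vamp8, Vamp2 and Stx4 overlap widely.

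In the neuronal class Snap25, Stx1a and Vamp1 lay below the background limit, while Vamp2, with a mean of 5.94, lay above it. Snap25, the plasma membrane SNARE of synapses, was the 1 member with an unadjusted p under 0.05 and a higher value in RIC. It measured 4.03, 3.90, 4.03, 4.08 and 3.98 in control and 4.14, 4.04, 4.19, 4.15 and 4.28 in RIC, so 4 of 5 RIC values exceeded every control. This was a log2 difference of 0.16 (SE 0.05) with an unadjusted p of 0.0121 and an adjusted p of 0.383. All 10 values lay under the background limit. The receptor clusters moved the same way, with a per-sample median of 4.04 ± 0.03 in RIC and 3.96 ± 0.04 in control (SD, n = 5 each). Centring the arrays on that median left a difference of 0.07. Stx1a and Vamp1, the syntaxin and VAMP of nerve endings, differed by 0.03 and 0.04.

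Among the SNAREs that act between the endoplasmic reticulum and the Golgi, 10 of 12 were lower in RIC, 2 at an unadjusted p under 0.05, with a median of -0.08. Above background 9 of 11 were lower, 2 of them at that threshold. The single-symbol genes above background were lower in 67.1%, and 812 of 9491 were lower at that threshold. Use1 takes part in transport back to the endoplasmic reticulum, together with Stx18, Bnip1 and Sec22b. It measured 7.54, 8.55, 7.98, 7.75 and 7.60 in control and 7.18, 7.79, 7.35, 7.29 and 7.28 in RIC, so only RIC sample 2 entered the control range. The log2 difference was -0.51 (SE 0.20, 95% interval -0.96 to -0.06) with an unadjusted p of 0.0312 and an adjusted p of 0.419. It was -0.40 with an unadjusted p of 0.0337 without control samples 1 and 2, and its unadjusted p was 0.0560 to 0.0687 without RIC sample 1, 3, 4 or 5 or control sample 3. The other genes of the same complex differed by 0.004 (Stx18), -0.03 (Bnip1) and -0.06 (Sec22b).

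Stx5, the central syntaxin of the Golgi, measured 5.37, 5.24, 5.51, 5.30 and 5.15 in control and 5.10, 5.09, 5.14, 5.24 and 5.12 in RIC. Apart from RIC sample 4 the RIC values lay under all controls. The groups differed by -0.18 (SE 0.07, log2) with an unadjusted p of 0.0240 and an adjusted p of 0.409. With 1 sample left out the unadjusted p reached 0.05 or more in 3 of 10 fits, at most 0.0532, and it did so in 2 of 4 rescalings of the arrays, at most 0.0794. Its partners in the Golgi and in transport from the endoplasmic reticulum had differences of -0.37 for Bet1, -0.33 for Gosr2, -0.21 for Gosr1, -0.10 for Ykt6 and 0.02 for Bet1l, each with an unadjusted p above 0.05. Single samples moved several of them, to -0.24 for Bet1 without RIC sample 1, to -0.15 for Gosr2 without control sample 2, to -0.11 for Gosr1 without control sample 3 and to -0.06 for Ykt6 without RIC sample 4. The lipid-anchored SNARE Ykt6 ranged from 4.85 to 4.96 in control and from 4.64 to 4.93 in RIC. Sec22a and Sec22c, relatives of Sec22b, differed by -0.03 and -0.02.

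Of the 9 SNAREs of endosomes, lysosomes and the trans-Golgi network, 8 were lower in RIC (median -0.13). Above background 6 of 7 were lower, beside 67.1% of single-symbol genes. In this class 1 member had an unadjusted p under 0.05, while 812 of the 9491 single-symbol genes above background were lower at that threshold. The member was Stx6, a syntaxin of the trans-Golgi network. It measured 5.22, 5.21, 5.17, 5.30 and 5.05 in control and 5.08, 5.02, 5.15, 5.01 and 5.02 in RIC. Control sample 5 lay among the RIC values, and the other 4 controls lay above all of them. The log2 difference was -0.13 (SE 0.05) with an unadjusted p of 0.0237 and an adjusted p of 0.409. The unadjusted p was at or above 0.05 in 4 of 10 fits that left out 1 sample, at most 0.0547, and in 2 of 4 rescalings of the arrays, at most 0.0946. Its partners Vti1a and Vamp4 differed by -0.26 and -0.20, and Stx16 by -0.03, at or below background. Vti1a differed by -0.17 without control sample 3, and Vamp4 by -0.095 without control sample 2.

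In late endosomes Stx7 works with Vti1b and Stx8. Stx7 ranged from 7.62 to 8.36 in control and from 7.42 to 8.30 in RIC, with a difference of -0.14 (95% interval -0.54 to 0.27), and Vti1b differed by -0.12. Stx8 measured 5.44 ± 0.18 in control and 5.48 ± 0.17 in RIC, while the cluster of its pseudogene Stx8-ps1 measured 5.36 ± 0.15 and 5.14 ± 0.23 (SD, n = 5 each). A pseudogene can share sequence with its parent gene, and whether the probes of this pair or of Snap23 and Snap23-ps1 share RNA was not tested. Stx7 differed by -0.04 without RIC sample 5 and by -0.04 without control sample 3, and Stx8-ps1 by -0.13 without RIC sample 2. Stx12, a syntaxin of recycling endosomes, differed by -0.16, from -0.28 without control sample 5 to -0.08 without control sample 2, and Stx17, which acts in the fusion of autophagosomes, by -0.04.

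The members above background varied together with particular samples. Control sample 2 held the highest value of 12 of the 28 and control sample 3 of 8, while RIC sample 1 held the lowest of 6 and control sample 5 of 5. For the 8 members with a mean above 6, the per-sample median was 8.18 in control sample 2, 7.54 to 7.72 in the other controls, and 7.07 to 7.57 in RIC. Over the 5809 varying clusters with a mean of 6 to 18, the same median was 8.33 in control sample 2, 7.74 to 7.97 in the other controls and 7.46 to 7.84 in RIC, so control sample 2 stood highest there too. Controls had the larger SD in 17 of the 28 members, and in 59.2% of all varying clusters above background.

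**Figure D3:**
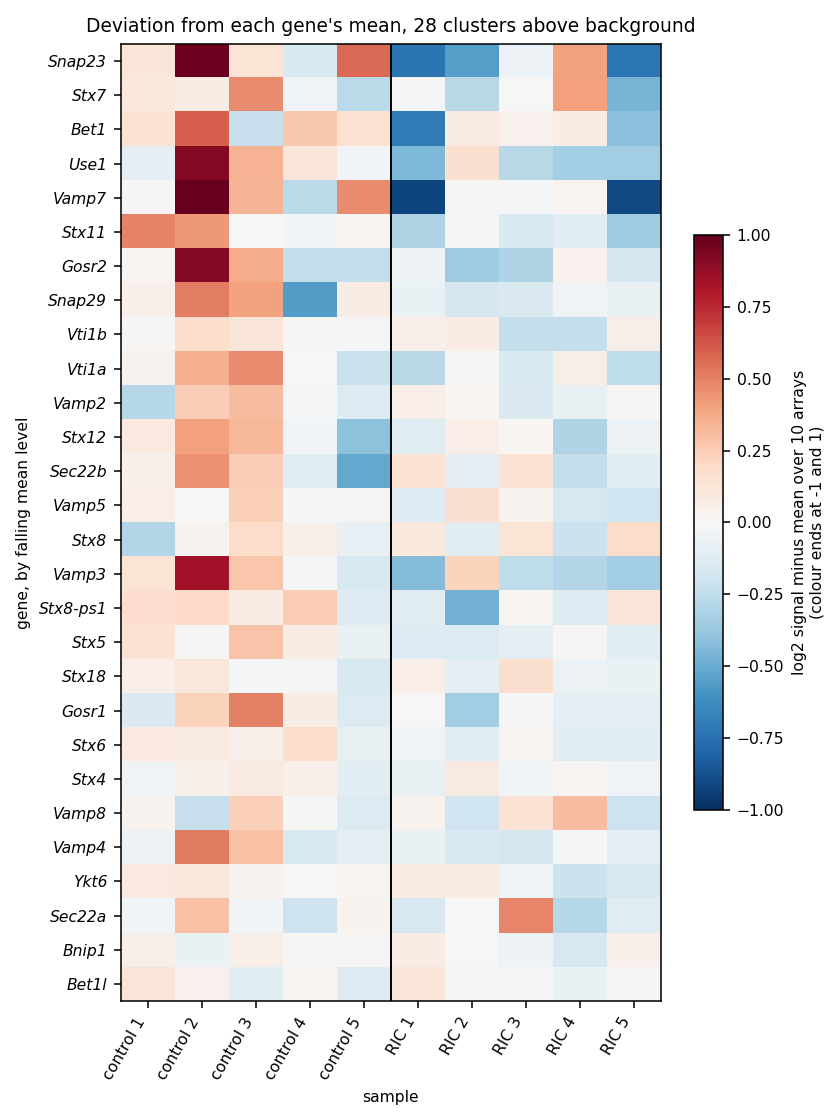
Deviation of each sample from the gene's mean over 10 arrays, in log2 signal, for the 28 members above background, ordered by mean level. Control sample 2 is high for Snap23, Use1, Vamp7, Gosr2 and Vamp3, and RIC samples 1 and 5 are low for Snap23 and Vamp7.

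The size of the difference went with level, in the members and in the array as a whole. Between 5 and 6, 11 of 13 members were lower in RIC (median -0.13), against 75.4% and -0.10 for the 2540 genes at that level. Between 6 and 9, all 7 members were lower, with a median of -0.37, against 82.2% and -0.23 for 1922 genes. Snap23 was the 1 member between 9 and 12, where 81.1% of 349 genes were lower with a median of -0.28. Between the background limit and 5, 5 of 7 members were lower with a median of -0.03, against 55.5% and -0.01. The part of the level in the members' differences was not tested by itself. With each array's level-dependent trend removed, 21 of the 28 members above background were lower, with a median of -0.08, and with repeated quantile normalization 20 were lower with a median of -0.09. All clusters above background then had medians of -0.005 and 0.00.

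**Figure D4:**
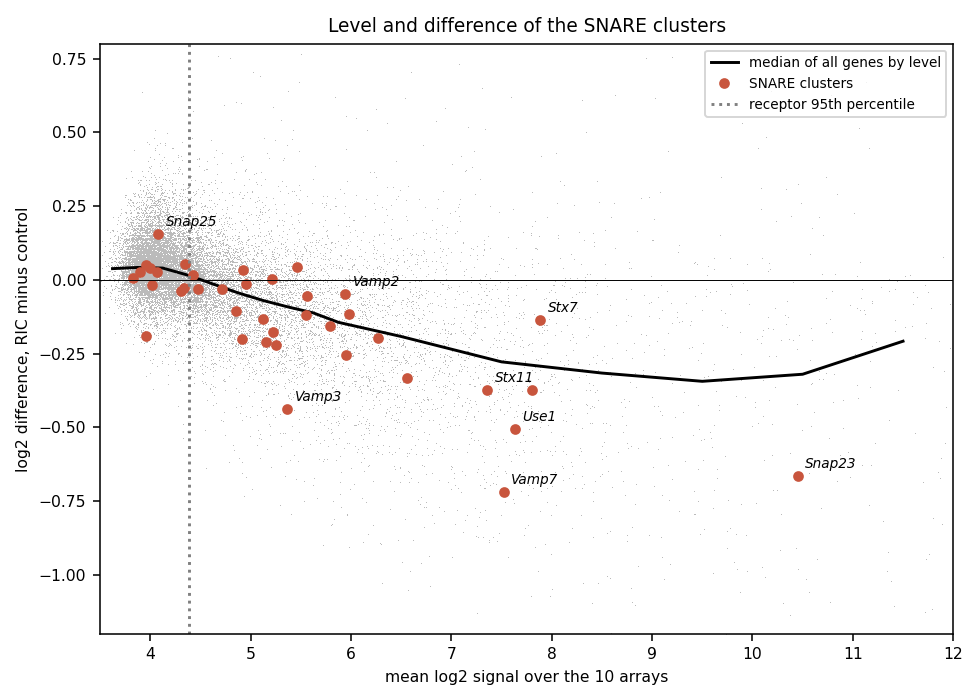
Log2 difference between RIC and control against mean level over the 10 arrays for the 39 members (red) and for all genes with 1 cluster each (grey). The black line is the median difference of all genes by level and the dotted line the background limit. The line falls below 0 as level increases, and Vamp7, Snap23, Use1 and Vamp3 lie below it.

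Scaling moved the members' differences. In the deposited values 28 of 39 were lower, against 38 after centring on the array median, 38 after centring on the receptors, 30 with the trend removed and 30 after repeated quantile normalization, while the median of all clusters went from 0.03 to -0.03, -0.06, -0.001 and -0.001. Snap23 ranged from -0.75 to -0.26 over 4 rescalings, Vamp7 from -0.81 to -0.46, Vamp3 from -0.52 to -0.34, Stx11 from -0.46 to -0.11 and Use1 from -0.59 to -0.24. Snap25 stayed between 0.07 and 0.10. The members with an unadjusted p under 0.05 numbered 10 lower and 0 higher after centring on the array median, when the share of lower ones over all clusters was 7.15%, and 16 lower and 0 higher after centring on the receptors, when it was 10.4%. They numbered 4 lower and 1 higher with the trend removed, when it was 4.95%, and 2 lower and 1 higher after repeated quantile normalization, when 5.01% of all clusters were lower and 4.83% higher at that threshold. Of the clusters above background, 13.2%, 17.7%, 5.92% and 5.68% were lower at that threshold in the same 4 rescalings, in that order. Several members whose difference lay near 0 changed sign with the scaling. So did Stx7, from -0.14 to 0.14, and Vti1b, from -0.12 to 0.04, both after repeated quantile normalization. In each rescaling 0 members passed the adjusted threshold.

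**Figure D5:**
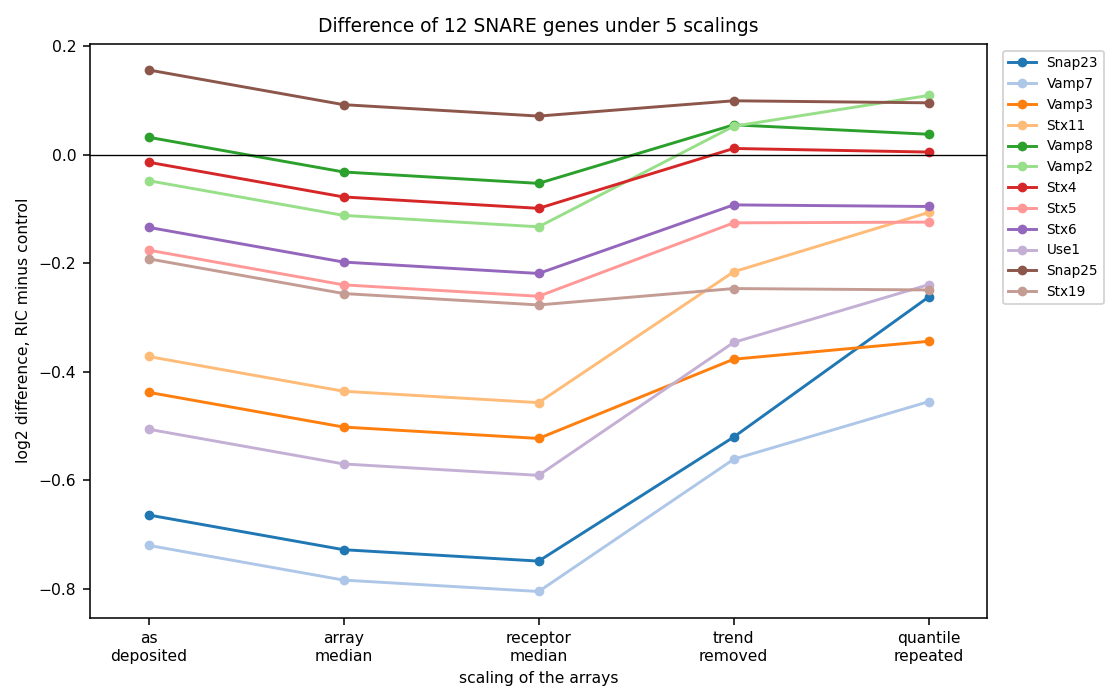
Log2 difference of 12 members in the deposited values and under 4 rescalings of the arrays. Snap23, Vamp7, Vamp3, Stx11, Use1, Stx5, Stx6 and Stx19 stay below 0 and Snap25 stays above 0 throughout, while Vamp8, Vamp2 and Stx4 cross 0.

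SNAREs work with proteins that start, guide and undo their assembly, and 82 of 85 listed partner genes had a cluster. None of the 82 passed over all clusters. With limma, an unadjusted p under 0.05 was found for 2 lower and 3 higher genes, against the shares of 3.17% and 7.97% over all clusters. That total of 5 became 12 without control sample 5, 3 without control sample 2 and 3 without RIC sample 5. Over all clusters the lower shares were then 4.07%, 2.80% and 2.72%, and the higher shares 7.58%, 5.67% and 6.60%. Above background 10.3%, 5.16% and 5.78% of all clusters were lower in the same fits. Of the 44 above background, 36 were lower and 8 higher, with a median of -0.12. Over the single-symbol genes above background 67.1% were lower, with a median of -0.06. Among the 44, 1 gene had an unadjusted p under 0.05, beside 7.33% lower and 3.95% higher of all clusters above background. That gene was Stxbp3, or Munc18c, which binds Stx4 and related syntaxins and takes part in platelet granule release.

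Stxbp3 measured 6.99, 8.02, 7.60, 7.16 and 7.02 in control and 6.93, 6.50, 6.46, 6.82 and 6.79 in RIC. All RIC values lay under all controls, and control sample 2 was again the highest. The log2 difference was -0.66 (SE 0.21, 95% interval -1.12 to -0.19) with an unadjusted p of 0.0106 and an adjusted p of 0.378. It ranged from -0.74 to -0.40 over 4 rescalings and from -0.75 to -0.49 when each sample was left out, with an unadjusted p of at most 0.0274 in each case. Of the 82 partners, Vps18 was the other gene with RIC wholly lower and Cadps the 1 with RIC wholly higher, beside 0.471% and 1.27% of all clusters.

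Vps18, a subunit of the tethering complexes of endosomes, measured 4.10 ± 0.07 in control and 3.97 ± 0.04 in RIC, and Cadps, a priming factor of dense-core vesicles, 4.01 ± 0.05 and 4.13 ± 0.06 (SD, n = 5 each). Cplx1, a complexin of synapses, measured 4.15 ± 0.10 and 4.36 ± 0.17, and Sytl5, a synaptotagmin-like protein, 3.97 ± 0.03 and 4.06 ± 0.08. The means of these 4 genes over all arrays lay below the background limit. Cplx1 exceeded it in RIC samples 1 and 5, at 4.48 and 4.60. Over 4 rescalings the differences were 0.035 to 0.063 for Cadps, 0.133 to 0.168 for Cplx1 and 0.011 to 0.040 for Sytl5. Each of these had an unadjusted limma p above 0.05. That of Vps18 was -0.221 to -0.192, with an unadjusted limma p of at most 0.0099.

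The other partners named in any case had unadjusted p-values from 0.468 to 0.791 in the deposited values. Stxbp2, or Munc18b, the partner of Stx11 in platelets, measured 6.25 ± 0.44 in control and 6.08 ± 0.28 in RIC, and Unc13d, or Munc13-4, which primes granules, 5.11 ± 0.26 and 5.20 ± 0.27. Nsf, the ATPase that takes spent SNARE bundles apart, measured 5.19 ± 0.14 and 5.22 ± 0.06, and its adaptor Napa 8.32 ± 0.27 and 8.28 ± 0.27 (SD, n = 5 each). Napa turned to 0.27 with an unadjusted p of 0.0269 after repeated quantile normalization, and Stxbp2 to 0.002 without control sample 2. By group of partners, 8 of 9 exocyst genes were lower with a median of -0.17, and all 7 genes of the HOPS and CORVET tethers with a median of -0.06. All 9 exocyst genes and 6 of the 7 tether genes lay above background, where 67.1% of single-symbol genes were lower. Of 17 synaptotagmins 6 were lower and 11 higher with a median of 0.02, and 2 of the 17 were above background. None of the exocyst or synaptotagmin genes had an unadjusted p under 0.05.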

How the data were processed

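The authors deposited 1 table of log2 signal values, 1 column per rat and 1 row per transcript cluster, and the submitters' processing notes name Affymetrix Expression Console. Its version, the genome build and the normalization were not given in the sources used here. Values had 2 decimals and a ceiling of 19.93. The number of arrays limits precision. Symbols came from the platform annotation, and all 39 members matched a RefSeq gene by gene number.

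Differences are RIC minus control (n = 5 each), fitted to all 68842 clusters in R 4.3.3 by limma 3.58.1 (lmFit, eBayes) with no covariate and no filter. Benjamini-Hochberg adjustment covered every cluster, with a threshold of 0.05. On simulated data with known changes, the step recovered only a part of the changed clusters at each size of change tried. A lack of calls therefore does not show a lack of difference. Alternatives were 4 rescalings (each array centred on its median, or on the median of 1446 receptor clusters; a loess trend of the array's deviation against level removed, span 0.3; quantile normalization run on the deposited values), filters, 2 other variance or weight models, a replicate block and left-out samples.

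Members and gene lists were chosen with earlier results of these data known. Values in every sample were given for members with an unadjusted p under 0.05 or known from platelet granule release. Partner genes were named at an unadjusted p under 0.05, with 5 named in any case. Further members are named with their differences.

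Marker lists had 0 called genes with limma, and at most 2 genes of any list had an unadjusted p under 0.05. Varying members lower in RIC were 0 of 6 erythroid, 3 of 10 neutrophil, 4 of 8 monocyte, 2 of 9 lymphocyte, 8 of 9 endothelial, 1 of 9 neuronal, 1 of 7 liver and 7 of 8 muscle genes.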

Additional observations from a re-analysis of the deposited data

Results flagged for a closer look

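In 7 of 96 groups of 5 samples examined, 1 sample stood apart from the other 4 by more than 0.71 of the group's range, where chance gives about 1 in 20. Among the 39 members there were 4 such values. RIC sample 2 was high for Use1, at 7.79 against 7.18 to 7.35, and for Vamp3, at 5.58 against 4.93 to 5.11. The same sample was low for Gosr1, at 4.82 against 5.07 to 5.16. Control sample 2 was low for Stx1a, at 3.91 against 4.08 to 4.10, within background.

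Among partner genes, RIC sample 5 was high for Nsf, at 5.33 against 5.18 to 5.21. Control sample 2 was high for Vps18, at 4.23 against 4.04 to 4.09, and low for Cadps, at 3.93 against 4.02 to 4.05.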

How the results depend on the processing

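No alternative brought any cluster, member or partner gene past the adjusted threshold of 0.05. The count of members with an unadjusted p under 0.05 was 8 of 39 in the deposited values. It was 16 after centring on the receptors, 5 with the level-dependent trend removed and 3 after repeated quantile normalization. Without control samples 1 and 2 it was 1. A fit of the clusters above background alone held only 28 members. In it 5 had such a p, beside 6 of the same 28 in the main fit. Leaving out each sample gave 4 to 9, while 5.16% to 10.3% of all clusters above background were lower at that threshold. For the 82 partner genes the count of 5 became 11 after centring on the receptors and 8 after repeated quantile normalization. It was 3 to 12 with a sample left out (12 without control sample 5, 3 without RIC sample 5 and 3 without control sample 2). The fit above background alone held 44 partner genes, of which 1 had such a p, as in the main fit. The members' median difference was -0.19 after centring on the receptors, -0.17 after centring on the array median, -0.07 with the trend removed, -0.05 after repeated quantile normalization, and -0.13 to -0.04 with a sample left out. The cause of these shifts was not tested. Same-numbered samples of both groups share only a number, with correlations of their deviations from -0.06 to 0.23, and the fit with the replicate block gave 8 members and 6 partner genes at an unadjusted p under 0.05. Averaging all clusters of a gene changed nothing for the members, which have 1 cluster each.

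For 48 genes followed through 720 alternatives, 23 genes changed sign in 90, none with an adjusted p under 0.05, and Napa after repeated quantile normalization had an unadjusted p of 0.0269. After centring on the array median the differences that changed sign were -0.032 for Vamp8, -0.03 for Nsf, -0.022 for Stx8, -0.048 for Bet1l, -0.038 for Snap23-ps1, -0.058 for Snap47, -0.014 for Snap91, -0.06 for Stx18, -0.036 for Stx1a, -0.01 for Stx3 and -0.024 for Vamp1. After centring on the receptors the differences that changed sign were -0.053 for Vamp8, -0.003 for Unc13d, -0.051 for Nsf, -0.043 for Stx8, -0.069 for Bet1l, -0.059 for Snap23-ps1, -0.079 for Snap47, -0.035 for Snap91, -0.081 for Stx18, -0.057 for Stx1a, -0.031 for Stx3 and -0.045 for Vamp1. With the trend removed the differences that changed sign were 0.011 for Stx4, 0.052 for Vamp2, 0.12 for Napa, 0.026 for Stx7, -0.017 for Bet1l, 0.0197 for Sec22b, -0.027 for Snap23-ps1, -0.045 for Snap47, -0.0048 for Snap91, -0.029 for Stx1a and -0.016 for Vamp1. After repeated quantile normalization the differences that changed sign were 0.0047 for Stx4, 0.11 for Vamp2, 0.0071 for Stxbp2, 0.27 for Napa, 0.14 for Stx7, -0.035 for Bet1l, 0.0696 for Sec22b, -0.036 for Snap23-ps1, -0.051 for Snap47, -0.0026 for Snap91, -0.032 for Stx1a, -0.0048 for Stx3, -0.016 for Vamp1 and 0.039 for Vti1b. Without control samples 1 and 2 the differences that changed sign were -0.023 for Vamp8, 0.032 for Stxbp2, 0.068 for Napa, -0.029 for Stx8, 0.048 for Sec22a, 0.094 for Sec22b and -0.0087 for Stx1a. With 1 sample left out, the ranges were -0.044 to 0.006 for Stx4, -0.1245 to 0.023 for Vamp2, -0.042 to 0.0965 for Vamp8, -0.2805 to 0.002 for Stxbp2, -0.024 to 0.191 for Unc13d, -0.008 to 0.077 for Nsf, -0.1195 to 0.0655 for Napa, -0.026 to 0.1005 for Stx8, -0.015 to 0.051 for Bet1l, -0.054 to 0.0035 for Bnip1, -0.1575 to 0.038 for Sec22a and -0.191 to 0.0515 for Sec22b. For the others they were -0.042 to 0.003 for Sec22c, -0.058 to 0.0645 for Snap23-ps1, -0.026 to 0.0445 for Snap47, -0.0525 to 0.015 for Stx16, -0.0355 to 0.032 for Stx18, -0.007 to 0.045 for Stx1a, -0.256 to -0.035 for Stx7, 0.036 to 0.0585 for Snap91, 0.0315 to 0.0825 for Stx3, 0.031 to 0.049 for Vamp1 and -0.15 to -0.07 for Vti1b. Signals near background limit what the dimmer members can show.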
